A study of Rattus norvegicus with 8 samples.

Results

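Krüppel-like factors are transcription factors that bind GC-rich and CACCC-containing DNA through a set of zinc fingers at the carboxyl end of the protein. Several are induced within an hour or so of a stimulus such as contraction, stretch or a hormone, and then pass the signal on to slower metabolic or growth genes. In skeletal muscle the family is best known for KLF15, which raises amino acid and lipid catabolism when glucocorticoids are high, and for KLF5, which in the mouse has been tied to lipid oxidation. The 7 genes described here, Klf2, Klf4, Klf5, Klf6, Klf9, Klf10 and Klf15, were picked from the family with differences between meals in these same arrays known. Their 20 probe sets, among 31042 tested, are every probe set annotated to 1 of these symbols and to no other gene. The differences between meals below are therefore a description and carry no test.

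Epitrochlearis muscle, a small fast-twitch muscle of the forelimb, came from male Sprague-Dawley rats aged 6 weeks, with 1 array per rat. Of the 8 rats, 4 received carbohydrate with whey protein hydrolysate (WPH) by gavage, and 4 had the same with an amino acid mixture (AAM) in its place. Every rat had trained in water for 3 days, eaten a restricted 5 g of chow on the day before, swum for 2 h and then taken a meal of 44 kJ, so no resting, fasted or unfed muscle was measured. The comparison asks whether peptides and free amino acids of the same composition differ in what they do to the muscle. The labels state neither the barrel in which each rat swam nor the time of sampling, and with whole muscle, fewer cells of a type and less RNA per cell cannot be told apart. The 7 fast fibre markers had mean levels between 11.33 and 14.01, and the 5 slow fibre markers between 9.91 and 11.49, on a scale that ran from 5.28 to 14.2. Levels of different probe sets are not comparable, so these ranges do not give the fibre types of the muscle.

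The deposited levels are on a log2-like scale, but arrays differed from each other only in distant decimals. Over all probe sets the median SD across the 8 arrays was 3.69e-06 of a deposited unit. Values per array are therefore given below as deviations from the mean over the 8 arrays, in millionths of a deposited unit, and they cannot be read as fold changes. To give a standardized difference, the mean after AAM was subtracted from that after WPH and the result was expressed in pooled SDs within meals. A level belongs to its own probe set and is not compared between probe sets.

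Klf5 and Klf10 stood higher in the muscle of rats given WPH, with no overlap between meals for 2 probe sets of Klf5, while all other Klf probe sets, that of Klf10 included, overlapped. Of the 4 probe sets of Klf5, 3 were higher after WPH, by standardized differences of 1.70, 2.37 and 4.85 (n = 4 per meal), and the only probe set of Klf10 was higher by 1.75. The probe sets of highest level of Klf2, Klf4, Klf6, Klf9 and Klf15 had standardized differences between -0.14 and 0.15 on the deposited values. These depended on how arrays were scaled. With quantile normalization Klf4 had 1.21, Klf15 -1.22, Klf2 and Klf9 0.71 each and Klf6 -0.10. With array medians subtracted they lay between -0.44 (Klf9) and 0.15 (Klf6). Of all 20 probe sets 12 were higher and 8 lower after WPH, with a median of 0.08, beside 47.3% higher and a median of -0.04 over the 31042 probe sets. By limma with Benjamini-Hochberg adjustment, 0 of the 31042 probe sets (0.0%) had an adjusted p below 0.05, while 532 higher (1.71%) and 578 lower (1.86%) had an unadjusted p below 0.05.

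The regions just upstream of Klf5, which held the probe set of largest standardized difference on the deposited scale, and of Klf6, Klf9 and Klf15, which had the highest positive correlations with each other across rats, are printed here to show which motifs their promoters hold. Each runs from 250 bases before to 50 bases after the start of the gene, 5′ to 3′ on the gene's strand, in RefSeq's annotation of GRCr8, and such windows were read for 5 of the 7 genes (Klf4, not printed, is the fifth). The positions are chr15:82471831-82472130 on the plus strand for Klf5, chr17:69458429-69458728 on the minus strand for Klf6, chr1:230126396-230126695 on the plus strand for Klf9 and chr4:124522765-124523064 on the plus strand for Klf15. Capitals mark the GC box (GGGCGG), the CCAAT box (CCAAT), the E-box (CACGTG) and the half-site of the cyclic AMP response element (TGACG), each searched on both strands.
Klf5: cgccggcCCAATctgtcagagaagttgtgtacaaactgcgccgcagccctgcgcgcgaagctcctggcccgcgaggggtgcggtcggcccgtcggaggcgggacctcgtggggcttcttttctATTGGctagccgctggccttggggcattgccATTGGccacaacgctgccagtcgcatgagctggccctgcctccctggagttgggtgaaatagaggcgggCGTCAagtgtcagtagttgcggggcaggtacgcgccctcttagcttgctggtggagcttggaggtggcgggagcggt
Klf6: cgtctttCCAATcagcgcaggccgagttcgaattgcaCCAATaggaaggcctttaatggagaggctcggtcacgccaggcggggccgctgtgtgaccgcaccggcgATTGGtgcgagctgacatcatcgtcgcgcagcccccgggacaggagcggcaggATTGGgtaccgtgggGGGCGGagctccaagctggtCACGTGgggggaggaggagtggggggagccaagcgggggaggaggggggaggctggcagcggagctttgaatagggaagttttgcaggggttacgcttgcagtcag
Klf9: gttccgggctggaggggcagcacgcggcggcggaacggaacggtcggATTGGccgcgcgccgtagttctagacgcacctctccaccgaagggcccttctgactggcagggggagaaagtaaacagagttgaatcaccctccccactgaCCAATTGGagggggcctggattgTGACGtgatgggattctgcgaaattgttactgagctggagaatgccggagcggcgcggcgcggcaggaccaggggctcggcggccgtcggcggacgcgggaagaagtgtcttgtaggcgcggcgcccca
Klf15: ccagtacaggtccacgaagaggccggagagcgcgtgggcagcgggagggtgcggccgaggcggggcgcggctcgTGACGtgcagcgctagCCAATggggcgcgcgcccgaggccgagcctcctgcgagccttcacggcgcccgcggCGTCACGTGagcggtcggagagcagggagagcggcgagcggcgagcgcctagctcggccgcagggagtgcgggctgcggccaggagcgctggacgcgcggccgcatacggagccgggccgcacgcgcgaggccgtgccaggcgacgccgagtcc

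The window of Klf4 held 0 matches to each motif searched. The 4 printed windows held CCAAT boxes, with 3 in Klf5, 4 in Klf6, 3 in Klf9 (a pair of which overlap on opposite strands) and 1 in Klf15. A CCAAT box was found in 37.5% of the 33469 promoter windows of the same length. The E-box, which 6.42% of all windows hold, was present in Klf6 and in Klf15, and the copy in Klf15 overlaps one of its TGACG sites. TGACG was found once in Klf5, once in Klf9 and at 2 places in Klf15, against 21.2% of all windows. The GC box was found in Klf6 only, among these 4, and in 33.1% of all windows. The CACCC core, left in lower case, had 2 matches in Klf5, 1 in Klf9 and 1 in Klf15, and 54.9% of all windows held it. GC content was 65.3% for Klf5, 64.7% for Klf6, 65.3% for Klf9 and 77.3% for Klf15, against a median of 51.7% over all windows, and a motif made of G and C is met more often in such sequence. These matches say only which letters are in the windows.

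Klf5 encodes a factor best known from dividing epithelium and from remodelling smooth muscle. Its probe set 1385961_at, at a mean level of 6.43, deviated by 17.9, 15.0, 12.5 and 11.9 millionths in the 4 WPH rats (replicates 1 to 4), against -20.8, -4.27, -20.5 and -11.7 in the 4 AAM rats. The WPH arrays lay close together and all above the AAM arrays. The difference was 28.6 ± 4.18 millionths (SE, n = 4 per meal). Probe set 1368363_at, made to the RefSeq transcript (level 6.73), deviated by 17.8, 17.8, 26.0 and 53.2 millionths after WPH, against -56.1, 12, -45.1 and -25.6 after AAM. Here too the meals did not overlap, although AAM replicate 2 came close to the WPH arrays, and the difference was 57.4 ± 17.1 millionths. These 2 were the Klf probe sets without overlap, both higher after WPH, while 335 of the 31042 probe sets (1.08%) were without overlap and higher after WPH.

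The probe set of Klf5 with the highest level, 1394039_at (7.77), deviated by 93.5, 8.01, 244 and 129 millionths after WPH, against -159, 135, -233 and -216 after AAM. Its AAM replicate 2 lay above 3 of the 4 WPH arrays, so the meals overlapped, and the difference was 237 ± 98.8 millionths. The fourth probe set, 1398159_at (6.25), went with neither meal. It deviated by 0.262, -0.228, -2.22 and 2.04 millionths after WPH, against -1.94, 3.81, -0.731 and -0.993 after AAM, a difference of -0.0750 ± 1.55. AAM replicate 2 was the highest AAM array in all 4 Klf5 probe sets. Without it the standardized difference was 4.04 for 1394039_at, 4.37 for 1368363_at, 8.26 for 1385961_at and 0.84 for 1398159_at.

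The size of the Klf5 difference depended on how arrays were scaled. The medians of the 8 arrays spanned 66.7 millionths, which is more than the whole spread of 38.6 millionths of probe set 1385961_at. Its standardized difference of 4.85 was 0.65 with array medians subtracted and 0.35 with quantile normalization. It was 19.35 on a fourth-root scale, taken of deviations from the probe set's own median over the 8 arrays. That scale compresses large deviations and stretches small ones. Meals without overlap lie on opposite sides of that median, so the scale itself draws them apart relative to their spread, and 19.35 adds no support. By limma 51 of the 31042 probe sets (0.164%) were called on that scale, 1385961_at among them, which is no test of a gene picked with its difference known. That of 1368363_at was 1.09 with medians subtracted and 1.03 with quantile normalization, and that of 1394039_at was 1.42 and 0.64.

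**Figure D1:**
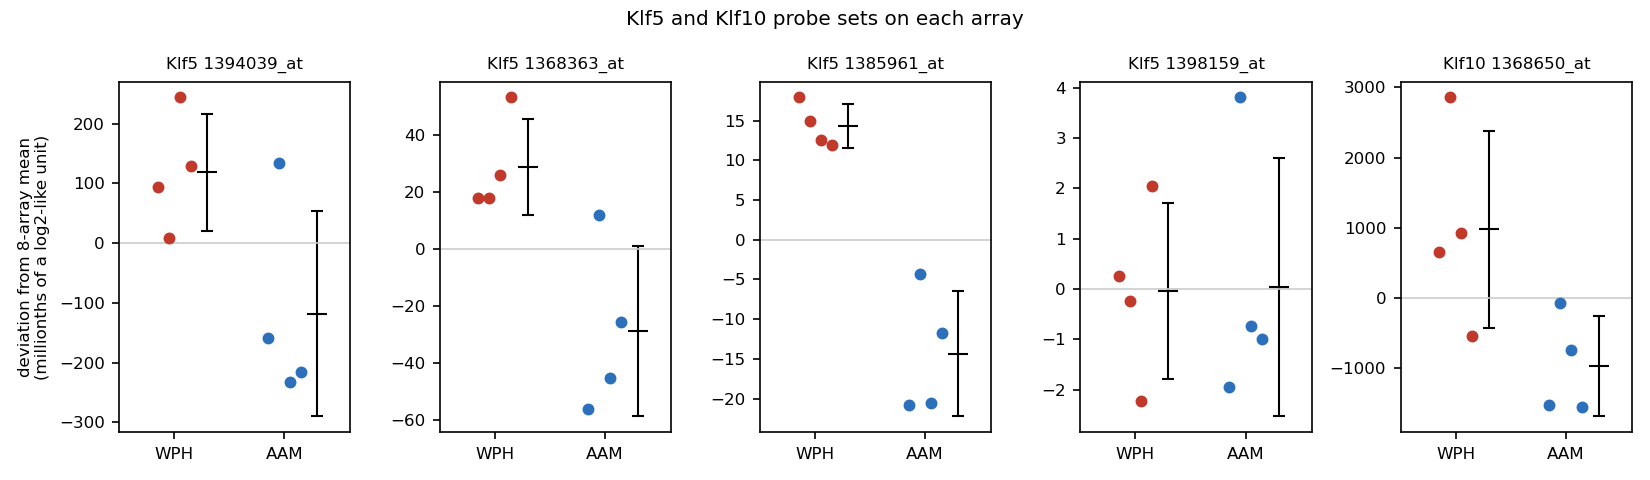
Deviation of each array from the 8-array mean, in millionths of a deposited log2-like unit, for the 4 probe sets of Klf5 and the 1 of Klf10, with the 4 WPH arrays left (red) and the 4 AAM arrays right (blue). Black bars give the mean and SD of each meal. The meals do not overlap for 1368363_at and 1385961_at, and the vertical scale differs between panels.

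Klf5 and Klf4 are strongly expressed in skin and epithelium, and all 4 markers of these tissues (Krt5, Krt14, Epcam and Ivl) were lower after WPH, with 0 of 4 past the limma test. Their score, the mean z-score over the markers, was between -0.52 and -0.37 in the WPH rats and between -0.15 and 0.80 in the AAM rats, without overlap. Of the 4 markers 0 were by themselves without overlap, and among all lists scored only this score was. The mean levels of the 4 markers were low, between 6.03 and 6.79, on a scale that began at 5.28 and with array medians of 6.66. Their differences, from -3.49 to -0.561 millionths, were smaller than the 66.7 millionths that the array medians spanned. Of the 4 smooth muscle markers 1 was higher after WPH, with scores from -1.27 to 0.82 after WPH and from -0.52 to 0.45 after AAM. The part of these cells in the Klf5 difference was not tested.

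Klf10 encodes a repressor first found as an early gene of transforming growth factor beta (TGF-beta). Its 1 probe set (level 9.44) deviated by 660.5, 2857, 927 and -542 millionths after WPH, against -1529, -66.5, -747 and -1560 after AAM. WPH replicate 2 was the highest array and 3 of the 4 WPH arrays lay above every AAM array, while WPH replicate 4 lay between AAM arrays. The difference was 1951 ± 789 millionths (SE, n = 4 per meal). Scaling changed it little, with standardized differences of 1.73 with array medians subtracted and 1.68 with quantile normalization. Leaving out 1 array at a time gave standardized differences from 1.48 to 2.62, the highest without WPH replicate 4.

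Klf6 encodes a widely expressed factor that tissues induce after injury. Its probe set 1387060_at (level 9.75) deviated by 800.3, -2847, 2828 and -139 millionths after WPH, against 265, 53.1, -2672 and 1712 after AAM. In each meal 1 rat stood low, WPH replicate 2 and AAM replicate 3, and 1 stood high, WPH replicate 3 and AAM replicate 4, and the AAM arrays lay within the range of the WPH arrays. The difference was 321 ± 1491 millionths, and the other 2 probe sets had 252 ± 924 and 198 ± 521. The SD over the 8 arrays was at percentile 99.0 of all probe sets for 1387060_at, and at 98.6 and 97.8 for the other 2, so Klf6 was among the genes that varied most between these rats on the deposited scale.

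Klf2 encodes the factor that endothelium makes under laminar flow, and naive lymphocytes use it as well. Its probe set of highest level, 1376569_at (10.15), deviated by -122, -141, 102 and 141 millionths after WPH, against 48.8, -163, -65.3 and 198 after AAM. The rats of each meal were divided between high and low, and the difference was -9.44 ± 107 millionths. The other 4 probe sets had standardized differences between -0.72 and 0.05, and 3 of these 4 were lower after WPH. Probe set 1386040_at, at -0.72, reached -2.02 without AAM replicate 4. The score of the 7 measured endothelium markers ranged from -0.14 to 0.82 after WPH and from -1.01 to 0.66 after AAM.

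Klf4, a partner of Klf2 in endothelium and a factor of epithelial differentiation, had 1 probe set (level 10.11). It deviated by -148, -62.1, 55.7 and 128 millionths after WPH, against 3.23, -66.0, 86.9 and 2.40 after AAM. Both the highest and the lowest array were WPH arrays. The difference was -13.3 ± 68.8 millionths.

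Klf9 and Klf15 are hormone-responsive members, and both are direct targets of the glucocorticoid receptor. The probe set of Klf9 at the highest level, 1370209_at (12.48), deviated by 2.76, -11.0, 5.22 and 4.67 millionths after WPH, against 10.1, -5.51, -11.8 and 5.57 after AAM. WPH replicate 2 and AAM replicate 3 were again the low arrays, and the difference was 0.798 ± 6.32 millionths. The other 2 probe sets of Klf9 differed by -3.37 ± 12.4 and 0.573 ± 1.40 millionths.

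Klf15 encodes the factor best known for amino acid use in muscle. Its probe set 1368249_at (level 10.05) deviated by 169.5, -187, 457 and -363 millionths after WPH, against 274, -150.1, -858 and 658 after AAM. The AAM rats spanned the wider range, with replicate 3 lowest and replicate 4 highest of all 8. The difference was 38.0 ± 373 millionths, and that of 1381396_s_at was -25.0 ± 87.1. The third probe set, 1381395_at, had a standardized difference of 1.0, but its 8 values lay within 0.118 millionths of each other, with an SD at percentile 0.0805 of all probe sets.

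**Figure D2:**
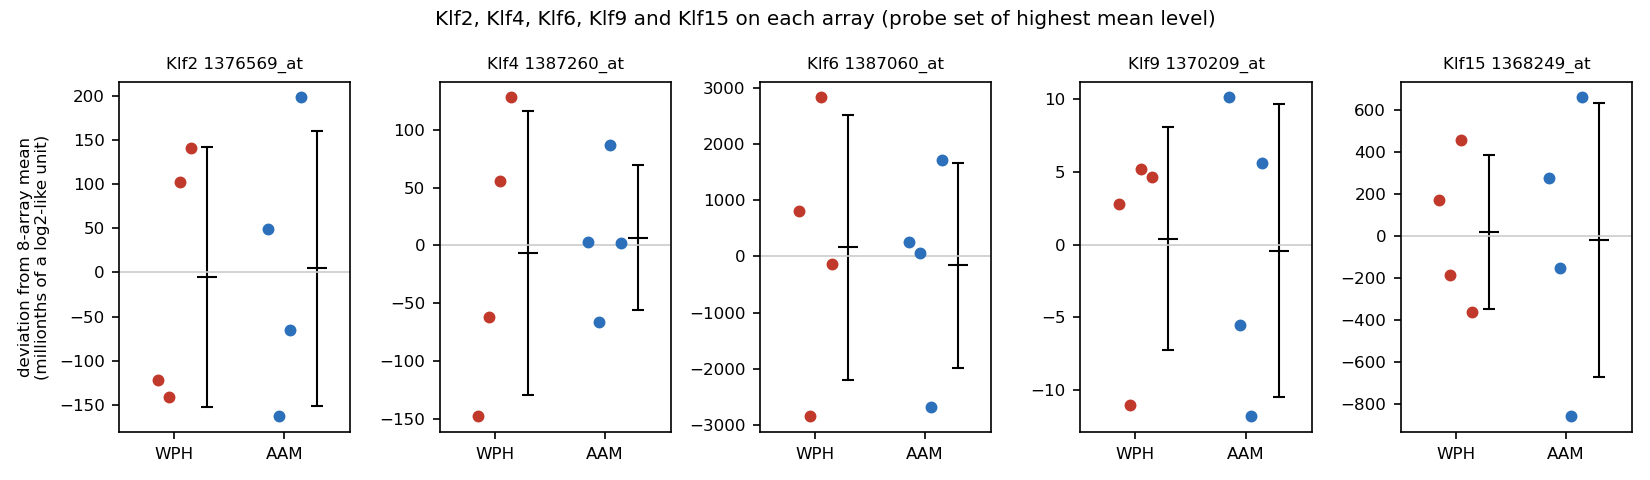
Deviation of each array from the 8-array mean, in millionths of a deposited log2-like unit, for the probe set of highest level of Klf2, Klf4, Klf6, Klf9 and Klf15, with WPH left (red) and AAM right (blue) and black bars for the mean and SD of 4 arrays. The meals overlap in every panel, and the vertical scale differs between panels.

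**Figure D3:**
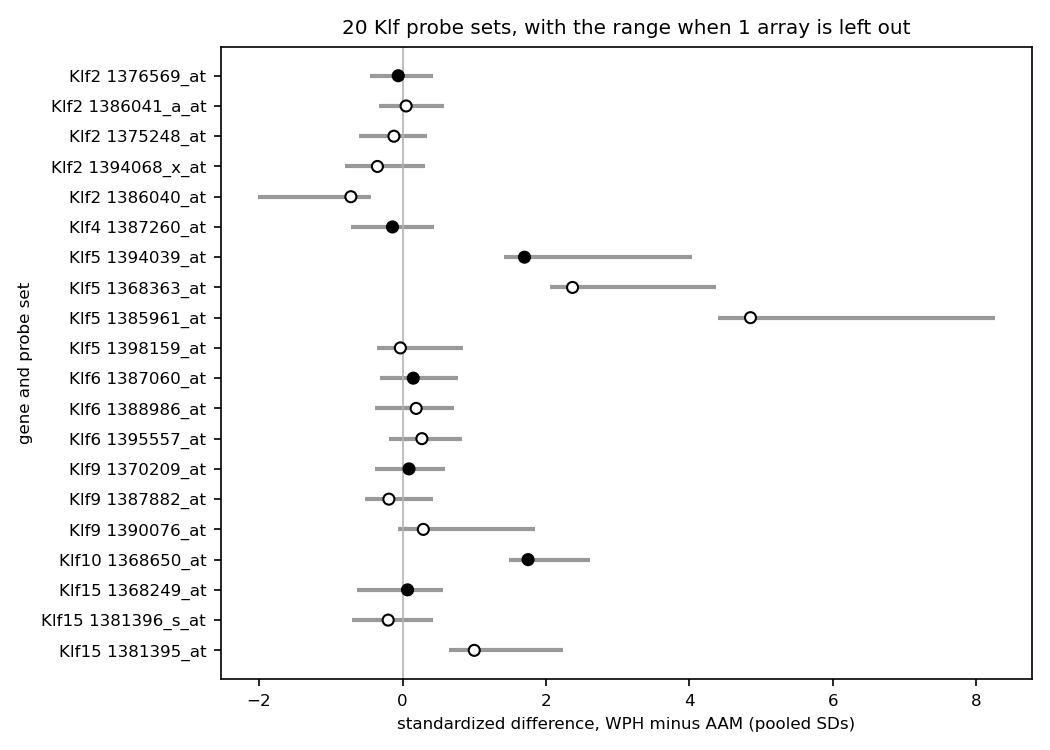
Standardized difference, WPH minus AAM in pooled SDs within meals, for the 20 Klf probe sets (filled, the probe set of highest level of a gene; open, the others), with grey bars for the range when 1 of the 8 arrays is left out. The bars of 3 Klf5 probe sets and of Klf10 stay above 0, as does that of Klf15 1381395_at, while those of Klf6 and of most others span 0.

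Whether probe sets of 1 gene measured the same thing was tested on deviations from the mean of each meal, which the choice of genes did not use. Pearson's r over the 8 arrays was tested by exact permutation of the arrays within each meal, two-sided, over 576 arrangements, with Benjamini-Hochberg adjustment over the 25 same-gene pairs. The smallest p that these permutations can give is 0.00174. Of the 25 pairs 5 passed an adjusted p of 0.05. The 3 probe sets of Klf6 followed each other with r between 0.98 and 0.99 and Spearman's rho between 0.90 and 0.98 (adjusted p = 0.0217 for each pair by exact permutation). Klf2 probe sets 1376569_at and 1386041_a_at had r = 0.99 and rho = 1.0 (adjusted p = 0.0217, exact permutation), and Klf15 probe sets 1368249_at and 1381396_s_at had r = 0.92 and rho = 0.93 (adjusted p = 0.0434, exact permutation).

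By rho, 2 of these 5 pairs passed, those of Klf2 and of Klf6 1387060_at with 1395557_at (adjusted p = 0.0434 by exact permutation for each). Without the 2 arrays farthest from the median of the first probe set of each pair the 5 values of r were between 0.81 and 0.98. Probe sets of a gene are read from the same labelled RNA and can share target sequence, so they are not independent measurements of a rat. The other 20 pairs did not pass. Those of Klf5 had r from 0.53 to 0.85 with each other, none past the threshold, and the highest, 0.85 between 1368363_at and 1398159_at, was 0.09 without AAM replicate 2 and WPH replicate 4. Probe set 1381395_at of Klf15 had r = -0.34 and -0.46 with the other 2 of its gene.

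**Figure D4:**
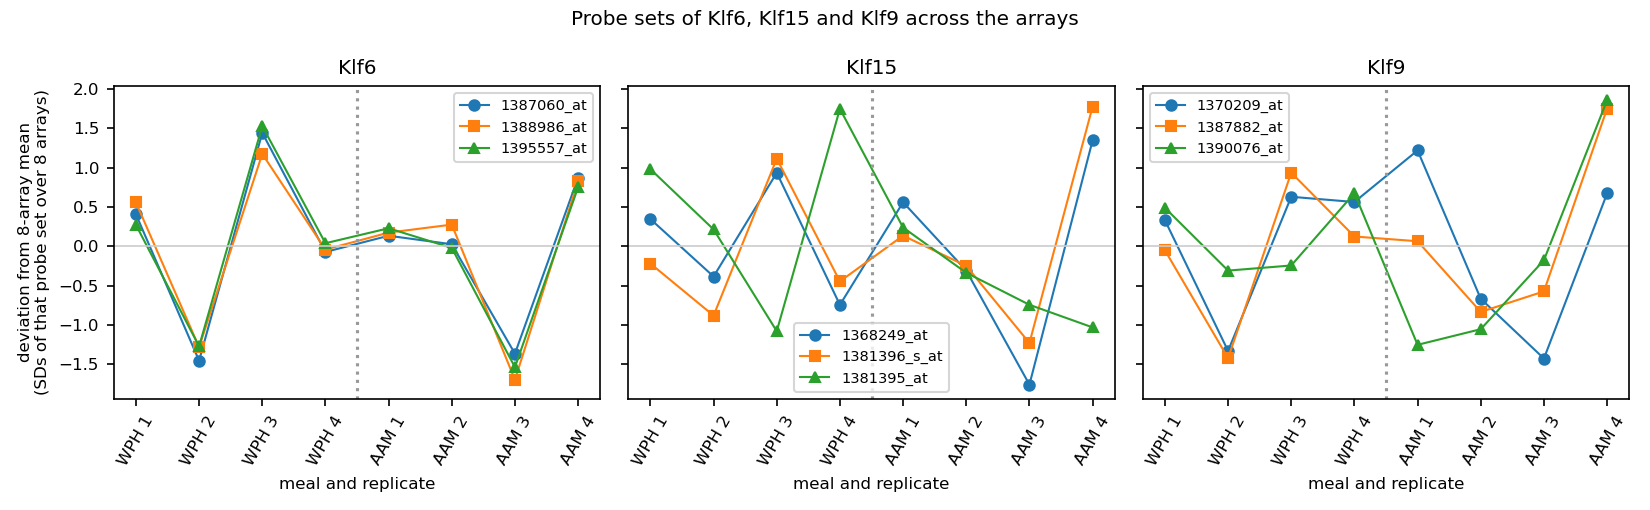
Deviations of each probe set of Klf6, Klf15 and Klf9 from its 8-array mean, in SDs of that probe set over the 8 arrays, with the 4 WPH arrays left of the dotted line and the 4 AAM arrays right of it. The 3 Klf6 lines lie on each other, with lows at WPH replicate 2 and AAM replicate 3, while 1381395_at of Klf15 departs from the other 2 of its gene.

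Between genes, no pair of the 7 factors varied together past the threshold. The same test over the 21 pairs of genes, each by its probe set of highest level, gave 0 pairs below an adjusted p of 0.05 (smallest 0.201) and 4 at an unadjusted p below 0.05. By Spearman's rho the smallest adjusted p was 0.219. Klf6 and Klf15 had r = 0.82 and rho = 0.88 (exact permutation p = 0.0122 and 0.0104), and without WPH replicate 2 and AAM replicate 3 r was 0.83. Klf6 and Klf9 had r = 0.80 and rho = 0.74 (exact permutation p = 0.0295 and 0.0382), but r was 0.23 without the same 2 arrays, so this relation rests on them. Klf9 and Klf15 had r = 0.73 and rho = 0.74 (exact permutation p = 0.092 and 0.0816), and r was 0.47 without these 2 arrays.

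Klf10 ran against Klf2 (r = -0.74, rho = -0.83, exact permutation p = 0.026 and 0.0243) and against Klf9 (r = -0.76, rho = -0.76, exact permutation p = 0.0382 and 0.059). The first became -0.60 without AAM replicate 4 and WPH replicate 4, the 2 arrays farthest from the median of Klf2. The second became -0.66 without AAM replicate 3 and WPH replicate 2, the 2 farthest for Klf9. Klf2 and Klf4, the endothelial pair, had r = 0.63, and Klf5 had an |r| of at most 0.45 with each other member, the highest with Klf6. With the first principal component of the deviations of all probe sets, which held 28.4% of their variance, Klf15 had r = -0.76 (rho = -0.62, exact permutation p = 0.0694 and 0.161) and Klf4 r = 0.72 (rho = 0.64, p = 0.0347 and 0.111), with a smallest adjusted p of 0.243 over the 7 genes. Without AAM replicate 3 and WPH replicate 4 these became -0.12 and 0.34, so both rest on those arrays. The part of this component in the relations between genes was not tested.

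**Figure D5:**
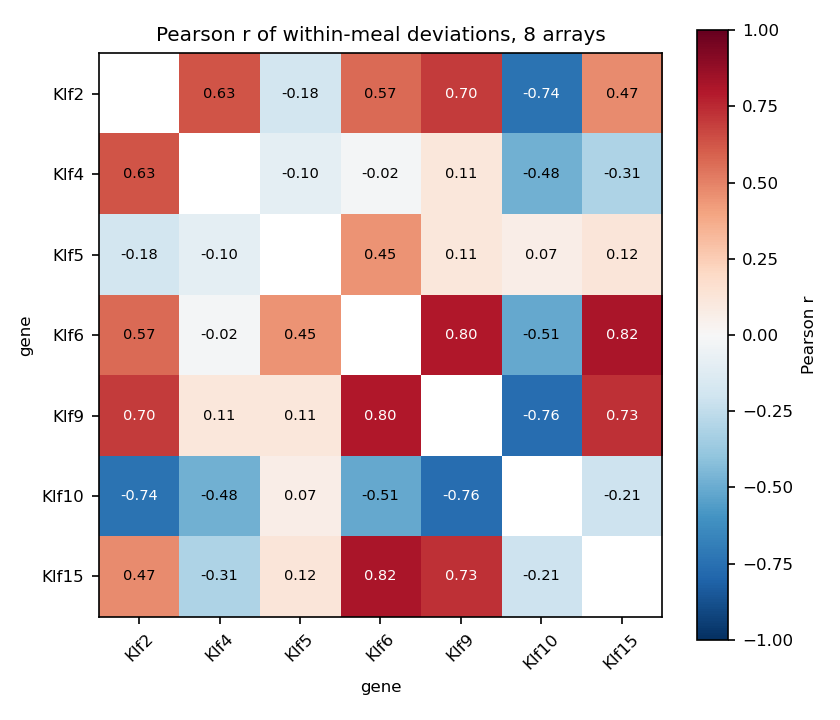
Pearson's r between the within-meal deviations of the 7 genes over 8 arrays, each gene by its probe set of highest level (red positive, blue negative). Klf6, Klf9 and Klf15 have r from 0.73 to 0.82 with each other, and Klf10 has r of -0.74 with Klf2 and -0.76 with Klf9.

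For each factor the genes whose within-meal deviations were most like it were sought among 14216 other genes. They are the best of so many over 8 arrays that high values arise readily, and they are given as a description. Klf6 was closest to Myf6, a myogenic regulatory factor of mature fibres (r = 0.984), Fkbp5, a cochaperone that glucocorticoids induce (0.982), and Myc, a growth regulator (0.962). Klf9 was closest to Atp2b1, a calcium pump of the plasma membrane (0.987), Arid5a (0.982) and Lrg1 (0.981). Klf15 was closest to Ube2g1 (0.984), Nrbp1 (0.984) and Prdm2 (0.976), and 46 genes exceeded 0.95 with it, against 7 to 15 for each of the other 6 factors.

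The vascular and early factors had other neighbours. Klf2 was closest to Ext2, an enzyme of heparan sulfate synthesis (0.997), Ttll7 (0.977) and Sertad1 (0.975). Klf4 was closest to Cmip (0.989), Atp8b2 (0.979) and Col18a1, a collagen of vascular basement membranes (0.975). Klf5 was closest to C1qtnf12 (0.981), Vps37d (0.979) and Cadm1 (0.975), and Klf10 to Gcdh, the glutaryl-CoA dehydrogenase (0.983), Usp29 (0.982) and Cdk12 (0.972). No gene appeared for more than 1 factor among these nearest 3.

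By the probe set of highest level, the rest of the family had smaller standardized differences than Klf5 and Klf10. Members were picked with differences known, so this order carries no support. Klf7 counts as lower by that probe set, although 3 of its 4 probe sets were higher, while Klf3 and Klf11 had 2 of 3 higher each. Of 10 further Krüppel-like genes 7 were measured, 4 higher and 3 lower after WPH, and 0 passed the limma test in either direction. The standardized differences were 0.81 for Klf11, a TGF-beta-inducible relative of Klf10, 0.72 for Klf12, 0.28 for Klf13, 0.26 for Klf3, -0.10 for Klf7, -0.13 for Klf1, the erythroid factor, and -0.21 for Klf16, with a median of 0.26 against -0.06 over 14217 genes. Of the Sp factors, which bind the same GC-rich sites, 4 of 9 were measured, 2 higher and 2 lower, with a median of 0.47. Sp1 had -0.01, Sp3 -0.75 and, named after their values were seen, Sp2 0.95 and Sp4 1.03.

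Genes around the factors were counted in the same way, each by its probe set of highest level, and in every list 0 members passed in either direction. Over all 14217 genes 46.1% were higher and 53.9% lower after WPH. Without overlap between meals, 124 of the 14217 were higher and 160 lower, which is the background for the single members without overlap named in these lists. Among genes linked to KLF15 in amino acid, glucose and lipid use, 14 of 17 were lower after WPH, with a median standardized difference of -0.46. Of these lower genes only Fabp3 (-359.8 millionths, named after its value was seen) differed by more than the 66.7 millionths that the array medians spanned. Standardized differences of list genes were computed on the deposited values only. Whether their signs hold with other scaling was not tested. Bcat2, the branched-chain aminotransferase that is a KLF15 target, had 2.98 with no overlap between meals, a difference of 69.8 millionths. Prodh, the proline dehydrogenase, had -0.46, Slc2a4, the glucose transporter, -0.40 (1 of its 2 probe sets higher) and Cpt1b, the carnitine palmitoyltransferase of muscle, -0.52. Ucp3 at 0.95 and Bckdha at 0.22 (1 of its 2 probe sets higher) were the other members that were higher, named here after their values were seen. Of the fibre type markers in the same comparison, 4 of 5 for slow fibres were lower after WPH (median -0.43, scores from -1.32 to 1.02 after WPH and from -0.55 to 1.02 after AAM) and 6 of 7 for fast fibres were higher (median 0.68, scores from -0.34 to 1.17 after WPH and from -0.74 to -0.15 after AAM). None of them was past the limma test, and their part in the values of the KLF15-linked genes was not tested.

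Of 16 glucocorticoid-induced genes 15 were measured, 9 higher and 6 lower, with a median of 0.02. Fkbp5 had -0.43, Tsc22d3, the leucine zipper mediator of glucocorticoid action, 0.26, Per1 0.42 and Sgk1, a serum- and glucocorticoid-induced kinase, -0.29. Mt1, a metallothionein, had 3.00 and was the 1 member without overlap between meals, named after its value was seen. Of 15 genes of the TGF-beta pathway 13 were measured, 10 higher and 3 lower, with a median of 0.16. Smad7, the feedback inhibitor, had 0.58 with all 3 probe sets higher, and Tgfb1, the ligand, had -1.39. Among 13 kinases upstream of KLF2 and KLF4 and their endothelial targets 5 were higher and 8 lower, with a median of -0.13. Mapk7, the ERK5 kinase that switches on Klf2, had -2.02 without overlap between meals, Mef2c, which ERK5 phosphorylates, 2.40, Nos3, the endothelial nitric oxide synthase, -1.09 and Thbd, thrombomodulin, 0.70. The differences of Mapk7 (-5.36 millionths), Mef2c (23.4) and Mt1 (30.6) were smaller than the 66.7 millionths that the array medians spanned. Their values with other scaling were not computed.

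Partners and targets of KLF5 were 3 higher and 6 lower of 9 measured among 10, with a median of -0.21. The corepressor gene Ncor1 had -0.21, Ppard, a nuclear receptor of lipid use, 0.26 and Pdgfa, a growth factor, -0.05. Immediate early genes were 14 higher and 4 lower of 18 measured among 19, with a median of 0.68, and their scores ranged from -0.56 to 0.91 after WPH and from -0.47 to -0.12 after AAM. Junb, named after its value was seen, had 2.25 and was the 1 member without overlap between meals. Over all 14217 genes 124 were higher without overlap. Fos had 1.54, with 1 of its 2 probe sets higher, Egr1 1.40 and Nr4a1 1.92, beside 1.75 for Klf10. Klf6 and Klf2, also known as early genes, had 0.15 and -0.06.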

How the data were processed

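Total RNA (100 ng per rat) was labelled for Affymetrix 3' arrays per the labels' protocols. The authors deposited 1 log2-like value per probe set and array. The submitters' processing notes name R 2.7.2, while background correction, normalization, summary, scale and centring are unknown. Groups came from the labels, which call the samples biological replicates. No arrays held identical values.

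Of 31099 probe sets, 57 controls were left out. Symbols came from the platform annotation: 20826 probe sets had 1, 436 several and 9780 were unnamed here. All 7 Klf gene IDs matched GRCr8. Meals were compared by a two-sided moderated test (lmFit, then eBayes with a prior df of 0.549) in limma 3.58.1, run under R 4.3.3, with Benjamini-Hochberg adjustment over 31042 probe sets. Correlations and counts were computed in Python 3.11.15. The procedures were tested on simulated data. Members, lists and tests were chosen with earlier results of these data known, and the promoter motifs with the sequences in view. Named genes are all member probe sets, the 3 genes most like each member, the remaining Krüppel-like genes and fixed members of the lists named whatever their values (Zbtb16 had no probe set named here, and another is not reported here). Alternatives were quantile normalization, array medians subtracted, the brighter probe sets, a replicate block, array weights, a trended robust prior, a fourth-root scale, 1 probe set per gene, a threshold of 0.1 and leaving out each array. The number of arrays limits the precision.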

Additional observations from a re-analysis of the deposited data

Results flagged for a closer look

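Dixon's ratio set a single array apart in 1 of 40 groups of 4 (20 probe sets in each meal), where chance gives about 1 in 20. This was Klf9 probe set 1370209_at, for which WPH replicate 2 lay low with a ratio of 0.849, at -11.0 millionths against 2.76 to 5.22 in the other WPH rats. Without it the standardized difference of Klf9 was 0.59 in place of 0.09.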

How the results depend on the processing

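The count of called probe sets by limma, 0 of 31042, was 5 with quantile normalization and 51 on the fourth-root scale, and 0 in every other setting run. For the Klf probe sets it was 1 on the fourth-root scale (1385961_at of Klf5, picked with its difference known) and 0 in the others. The number of Klf probe sets higher after WPH, 12 of 20, was 16 with quantile normalization, 9 with array medians subtracted and from 7 to 17 when 1 array was left out, with 7 both without AAM replicate 3 and without WPH replicate 3. Only 4 probe sets, 3 of Klf5 and that of Klf10, kept their sign with quantile normalization, array medians subtracted, the replicate block, array weights and each array left out, and 1385961_at was not among the brighter probe sets; signs were not counted on the fourth-root scale. No pair of Klf genes passed under any of the 6 other ways of computing the pairs, and with 1 array left out only r was recomputed. The labels do not say whether replicate numbers pair the rats, and they were not treated as pairs. Same-numbered arrays had correlations of 0.157, 0.134, 0.064 and -0.071 between their deviations. Set against the 4 arrays of the other meal, 5 of the 8 arrays correlated best with their own number. A pairing of the rats therefore cannot be dismissed, and the permutations within meals, which treat arrays as exchangeable, took no account of it. With the replicate block 0 probe sets were called, and Klf10 had a standardized difference of 3.42 in place of 1.75.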

Other observations

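Glucocorticoid-induced genes, of which Klf9 and Klf15 are known members, were set against the 7 factors across rats. This was chosen after Fkbp5 had been seen among the genes most like Klf6. The values are therefore a description, with no p. Over 28 pairs of within-meal deviations (7 factors with Fkbp5, Tsc22d3, Per1 and Sgk1, 8 arrays), Klf6 and Fkbp5 had r = 0.98 and rho = 0.98, with r from 0.98 to 0.99 when any 1 array was left out and 0.99 without WPH replicate 2 and AAM replicate 3. Klf15 and Fkbp5 had r = 0.84 and rho = 0.83, and r was 0.79 without AAM replicates 3 and 4, the 2 arrays farthest from the median of Klf15. Klf4 and Sgk1 had r = 0.87 and rho = 0.88, with r of 0.96 without WPH replicates 1 and 4, the 2 farthest for Klf4. Klf10 ran against Tsc22d3 with r = -0.87 and rho = -0.86, and r of -0.79 without WPH replicates 2 and 4, the 2 farthest for Klf10. These pairs were named for their high |r|. Of the 28 pairs 19 had a positive r and 9 a negative r. Klf9 had r = 0.83 with Tsc22d3 and 0.72 with Fkbp5, but 0.51 and 0.15 without WPH replicate 2 and AAM replicate 3. Klf15 had r = -0.40 with Sgk1 and -0.15 with Per1, and Klf6 had -0.01 with Sgk1. The arrays share the labelling and scaling of their rat for every gene.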
